A study of Mus musculus with 35 samples.

Results

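The adipogenic transcription factors are 5 genes whose products switch on the fat cell programme: Cebpb, Cebpd, Pparg, Cebpa and Srebf1. They were chosen by name, and each is measured by 1 probe set, so the 5 probe sets stand among 12422 tested and the 5 genes among 8251 with a symbol. RNA came from perigonadal adipose tissue, the fat pad beside the ovary or the testis, of mice aged 22 weeks on the C57BL/6J strain. Each of the 35 samples was hybridised to 1 Affymetrix MG-U74Av2 array. Female ob/ob mice, which lack functional leptin, were treated with CL316243 (2 arrays) or pioglitazone (3 arrays) or were untreated (4 arrays). The first drug, CL316243, stimulates the beta3 adrenergic receptor and was given at 3 mg/kg/day for 2 weeks, and pioglitazone, an agonist of PPAR gamma, at 10 mg/kg/day for 2 weeks. Female Ay/+ mice, with the yellow agouti allele, had the same pioglitazone course (3 arrays) or none (4 arrays), and the lean females were untreated wild type (4 arrays). The males were untreated ob/ob (4), wild type made obese by the diet D12451 with the same pioglitazone course (4) or without a drug (3), and lean untreated wild type (4). Sex comes from the sample titles, and 1 of the 3 pioglitazone-treated Ay/+ arrays has no dose in its label. The labels do not say whether a sample was 1 animal or a pool, so the spread between arrays may be partly technical.

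In a precursor cell that turns into a fat cell, C/EBP beta and C/EBP delta come first and switch on the genes of PPAR gamma and C/EBP alpha. Those then keep each other on and drive the genes of lipid storage, insulin-sensitive glucose uptake and adipokines. PPAR gamma, a nuclear receptor encoded by Pparg, is also the target of thiazolidinedione drugs such as pioglitazone. SREBP-1, encoded by Srebf1, is a membrane-bound factor that drives fatty acid synthesis after it has been cut free, and its transcript is raised by insulin and by the nuclear receptor LXR. In mature fat tissue C/EBP beta and delta are known for acute phase and inflammatory genes, also in macrophages.

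Levels below are scaled signals, MAS5 intensities after each array was brought to a 2% trimmed mean of 250, and log2 fold changes are of this signal plus 23. limma was fitted over all probe sets, and a gene is said to have risen, fallen or changed only where its adjusted p was under 0.05. A value after ± is the SD over the arrays of the group. The array carries 1 probe set for each gene, 97926_s_at for Pparg, 98447_at for Cebpa, 92925_at for Cebpb, 160894_at for Cebpd and 93264_at for Srebf1. Isoforms such as PPAR gamma 1 and 2 or SREBP-1a and 1c could not be told apart. The form of the scan records split the arrays into an earlier batch of 22 and a later batch of 13. The later batch held every ob/ob male, and the earlier batch every drug-treated female. No scan day was shared between ob/ob and lean males, between treated and untreated ob/ob females or between ob/ob males and females. CL316243-treated and pioglitazone-treated ob/ob females shared none either, so scan day and group cannot be told apart in any of these comparisons. The fat cell marker Adipoq (adiponectin) had signals of 4843 to 21784, and agouti had at least 378 in every Ay/+ array and at most 140.0 in every other array. 4 arrays stood apart and are doubted. Replicate 1 of untreated Ay/+ females correlated with its group at r 0.891, and replicate 4 of untreated ob/ob females at r 0.884. In Ay/+ females given pioglitazone, replicate 3, the array with no dose, had 23.9 as the 5th percentile of its signals. Among diet-induced obese males given pioglitazone, replicate 1 had a ratio of 46.9 between the 3' and 5' probe sets of Gapdh. 2 further arrays held transcripts of the male reproductive tract, a tissue that lies beside this fat pad. The summed signal of 5 such markers was 12847 in ob/ob male replicate 1 and 1619.8 in replicate 2 of pioglitazone-treated diet-induced obese males, against 24.6 to 328 in the other 33 arrays. In ob/ob male replicate 1 the sum of 6 mesothelial markers was also the highest of its group, 1541 against 408 to 513, and the falls of Pparg, Cebpa and Srebf1 in ob/ob males are given with and without this array. Some female arrays stood high in markers of other tissues. Sums of 10 ovary and uterus markers were highest in lean female replicates 3 and 1, 2100 and 1833, then ob/ob female replicate 4, 1422. Their mesothelial sums were 2427, 2191 and 2236. The muscle sum was highest in lean female replicate 1, 8058 over 12 markers. Lean female replicates 1 and 3 were the lowest of their group for all 5 genes. The part of other tissues in the female comparisons was not tested. In whole tissue, a change in the number of cells of a type and a change in RNA per cell cannot be told apart. Markers of macrophages moved with obesity. The summed signal of 24 macrophage markers was 36472 to 51556 in ob/ob females, 19940.3 to 27451 in Ay/+ females and 6866 to 13184 in lean ones. In males it was 53628 to 74615 in ob/ob, 44993 to 53529 in diet-induced obese and 15744 to 17618 in lean males. Their part in the results below was not tested.

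Which of the 5 genes passed the threshold differed between models, sexes and drugs. In ob/ob females Cebpb and Cebpd rose and Srebf1 fell against lean females, so 3 of 5 changed. Of all probe sets 24.3% changed there, 10.3% upward and 14% downward. In Ay/+ females Srebf1 alone fell, 1 of 5, where 17.8% of probe sets changed and 11.5% fell. Between ob/ob and Ay/+ females Cebpb and Cebpd were higher in ob/ob, 2 of 5, where 21.6% of probe sets changed and 11.7% were higher. In ob/ob males Pparg, Cebpa and Srebf1 fell against lean males, 3 of 5, where 10.6% of probe sets changed and 4.96% fell. In diet-induced obese males Pparg and Srebf1 fell, 2 of 5, where 1.85% of probe sets changed and 0.628% fell. Of the 5, none changed between ob/ob and diet-induced obese males, where 0.877% of probe sets did.

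Under pioglitazone Srebf1 rose in Ay/+ females, 1 of 5, where 3.03% of probe sets changed and 2.13% rose. None of the 5 passed the threshold in ob/ob females, where 1.06% of probe sets did, or in diet-induced obese males, where 1.42% did. CL316243 lowered Cebpd in ob/ob females, 1 of 5, where 3.74% of probe sets changed and 2.18% fell. Cebpb was lower with CL316243 than with pioglitazone, 1 of 5, where 7.59% of probe sets differed and 4.69% were lower. Pparg was higher in lean males than in lean females, 1 of 5, where 15.7% of probe sets differed and 5.22% were higher. None of the 5 changed between ob/ob males and females, where 1.19% of probe sets did. Srebf1 fell in all 4 comparisons of an obese group with its lean group, and no other gene of the 5 did, as the plot of fold changes shows.

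**Figure D1:**
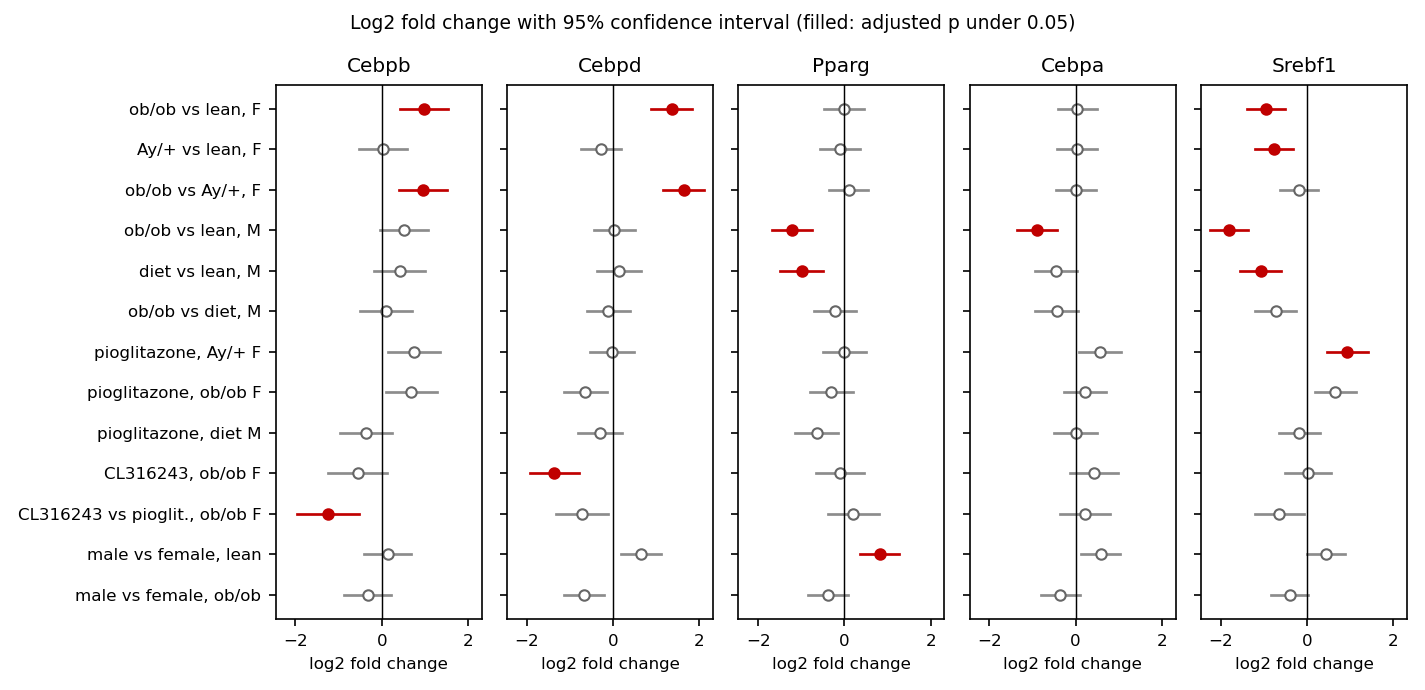
Log2 fold change of the 5 genes (columns) in 13 comparisons (rows, the group named first over the group named second, or drug-treated over untreated), from limma; points are estimates, lines are 95% confidence intervals, and filled red points have an adjusted p under 0.05. Srebf1 lies left of 0 in the 4 obese against lean comparisons, Cebpb and Cebpd lie right of 0 in ob/ob females, and Pparg lies left of 0 in obese males.

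Cebpb and Cebpd encode C/EBP beta and C/EBP delta, the early factors, which bind DNA as pairs with each other or with other C/EBP proteins. In ob/ob females both rose against lean females, Cebpb to a mean of 910.1, against 460.1 in lean, and Cebpd to 678, against 241. Neither passed the threshold in Ay/+ females or in obese males. Cebpb is known to be switched on through CREB, the cyclic AMP-responsive factor, at half-sites with the letters TGACG, and the 250 bases before its start site are shown for those half-sites, in capitals, on either strand (chr2:167688665-167688914, plus strand, from RefSeq, build GRCm38.p6).
Cebpb: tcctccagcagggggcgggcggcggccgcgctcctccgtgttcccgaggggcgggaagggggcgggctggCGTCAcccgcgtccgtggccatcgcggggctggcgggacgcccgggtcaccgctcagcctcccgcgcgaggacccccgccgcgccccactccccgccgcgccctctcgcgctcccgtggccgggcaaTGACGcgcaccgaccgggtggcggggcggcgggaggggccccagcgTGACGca
The window holds 3 matches of TGACG, at -180 to -176, -53 to -49 and -7 to -3 from the start site. Of all 32851 promoters in the RefSeq table, 17.8% hold TGACG in the same 250 bases. A match describes the letters and not a bound site. Promoters of 4 of the 5 genes were matched in the table, and none is printed for Cebpd.

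Among females, Cebpb had signals of 516 and 626 with CL316243, 1612, 1225 and 1326 with pioglitazone and 1095, 1085, 1054 and 407 in untreated ob/ob. In Ay/+ females it had 761, 787 and 659 with pioglitazone and 492, 372, 417 and 430.1 untreated, and lean females had 271, 389, 333 and 847. 3 of 4 untreated ob/ob arrays lay above every lean array, and replicate 4 of ob/ob lay low where replicate 4 of lean lay high; those 2 are the later arrays of the groups. Among males, ob/ob had 749, 629, 625 and 681, diet-induced obese males 387, 539, 409.6 and 602 with pioglitazone and 361, 763 and 858 without, and lean males 463, 489, 439.6 and 449. All 4 ob/ob male arrays lay above all 4 lean male arrays, while the diet-induced obese arrays overlapped the lean ones.

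The difference for Cebpb between ob/ob and lean females had a log2 fold change 0.98, SE 0.273, adjusted p = 0.00885, with means of 910.1 ± 336 and 460.1 ± 262 (SD, n = 4 each). The earlier and later arrays gave opposite signs. The log2 fold change was 1.65 (adjusted p = 1.9e-06) over the 3 earlier arrays of each group and -1.02 (adjusted p = 0.0845) between the 1 later array of each. The later ob/ob array is the doubted replicate 4, so the batch and that array cannot be told apart here. With scan day as a random block it was 0.66 (adjusted p = 0.163). Without the 4 doubted arrays it was 1.32 (adjusted p = 0.00015), and without lean replicate 1 the call was lost at 0.79 (adjusted p = 0.055). Against Ay/+ females the log2 fold change in ob/ob females was 0.96 (adjusted p = 0.0125), again with opposite signs (1.36 earlier, -0.26 later). The call was lost without ob/ob replicate 1 (adjusted p = 0.0514) or replicate 2 (adjusted p = 0.053). In males the difference between ob/ob and lean had a log2 fold change 0.52, SE 0.273, adjusted p = 0.301, and the log2 fold change in diet-induced obese males was 0.41 (adjusted p = 0.71). In Ay/+ females it was 0.027 (adjusted p = 0.96).

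With pioglitazone, Cebpb had its highest mean of the 10 groups, 1387 ± 201 (SD, n = 3) in ob/ob females, above every array of the next group. The log2 fold changes against untreated mice did not pass the threshold: 0.69 in ob/ob (95% interval 0.088 to 1.29, adjusted p = 0.534), 0.75 in Ay/+ females (0.15 to 1.35, adjusted p = 0.192) and -0.36 in diet-induced obese males (-0.96 to 0.24, adjusted p = 0.771). In the pair of ob/ob treatments Cebpb was lower with CL316243, 571 ± 78.3 (SD, n = 2), than with pioglitazone (log2 fold change -1.24, SE 0.353, adjusted p = 0.024), and the arrays did not overlap. The treatments shared no scan day, and the call was lost with scan day as a random block. That call was lost on leaving out any 1 of the 5 arrays except pioglitazone replicate 2, with adjusted p of 0.0545 to 0.22, and CL316243 against untreated ob/ob gave -0.56 (adjusted p = 0.39).

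Cebpd separated the ob/ob females more cleanly. Their signals were 631, 932, 731 and 417 untreated, with 177 and 322 under CL316243 and 351, 464 and 421 under pioglitazone. Ay/+ females had 241, 152 and 189 with pioglitazone and 247, 181, 205 and 154 untreated, and lean females 214, 261, 236 and 254. Every untreated ob/ob array lay above every lean and every Ay/+ female array. Males showed no such order, with 385, 359, 360.2 and 504 in ob/ob, 563, 359.6, 238 and 294 in diet-induced obese with pioglitazone, 342, 489 and 477 in those without, and 404, 451, 331 and 382 in lean males. All 4 male groups overlapped each other.

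Cebpd rose in ob/ob females to 678 ± 214, against 241 ± 21.2 in lean females (SD, n = 4 each; log2 fold change 1.36, SE 0.229, adjusted p = 5.6e-05), and it also exceeded the Ay/+ females (log2 fold change 1.64, SE 0.229, adjusted p = 1.5e-05). Within batches the first difference was 1.59 over earlier arrays (adjusted p = 1.0e-05) and 0.67 over the later pair (adjusted p = 0.39), and the second 1.95 and 0.70 (adjusted p = 1.0e-06 and 0.406). In males the log2 fold change of ob/ob against lean was 0.031 (95% interval -0.44 to 0.50, adjusted p = 0.977). The test of the difference between the sexes, the ob/ob effect in males minus that in females, was -1.33 (adjusted p = 0.0129). Of the 5 genes, 2 passed there, Cebpd and Pparg, both lower, where 5.68% of all probe sets passed and 2.84% were lower. With scan day as a random block that difference was -1.26 (adjusted p = 0.0592). Over later arrays, with 1 array in each female group, the difference was -0.76. Between ob/ob males and ob/ob females the log2 fold change was -0.68 (adjusted p = 0.156), and without ob/ob female replicate 4 it passed, at -0.88 (adjusted p = 0.0194). Replicate 4 is the only later ob/ob female array, so without it sex and batch cannot be told apart. Over later arrays, with replicate 4 alone for females, the log2 fold change was -0.062.

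Under CL316243 Cebpd fell to a mean of 249.8, against 678 in untreated ob/ob females (log2 fold change -1.36, SE 0.281, adjusted p = 0.00659; n = 2 and 4), and both treated arrays lay below all 4 untreated ones. The call was lost without CL316243 replicate 1 (-0.97, adjusted p = 0.261) and with scan day as a random block (-1.26, adjusted p = 0.0769). Pioglitazone gave -0.64 in ob/ob females (95% interval -1.15 to -0.14, adjusted p = 0.391), -0.021 in Ay/+ females and -0.30 in diet-induced obese males, none of which passed the threshold.

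**Figure D2:**
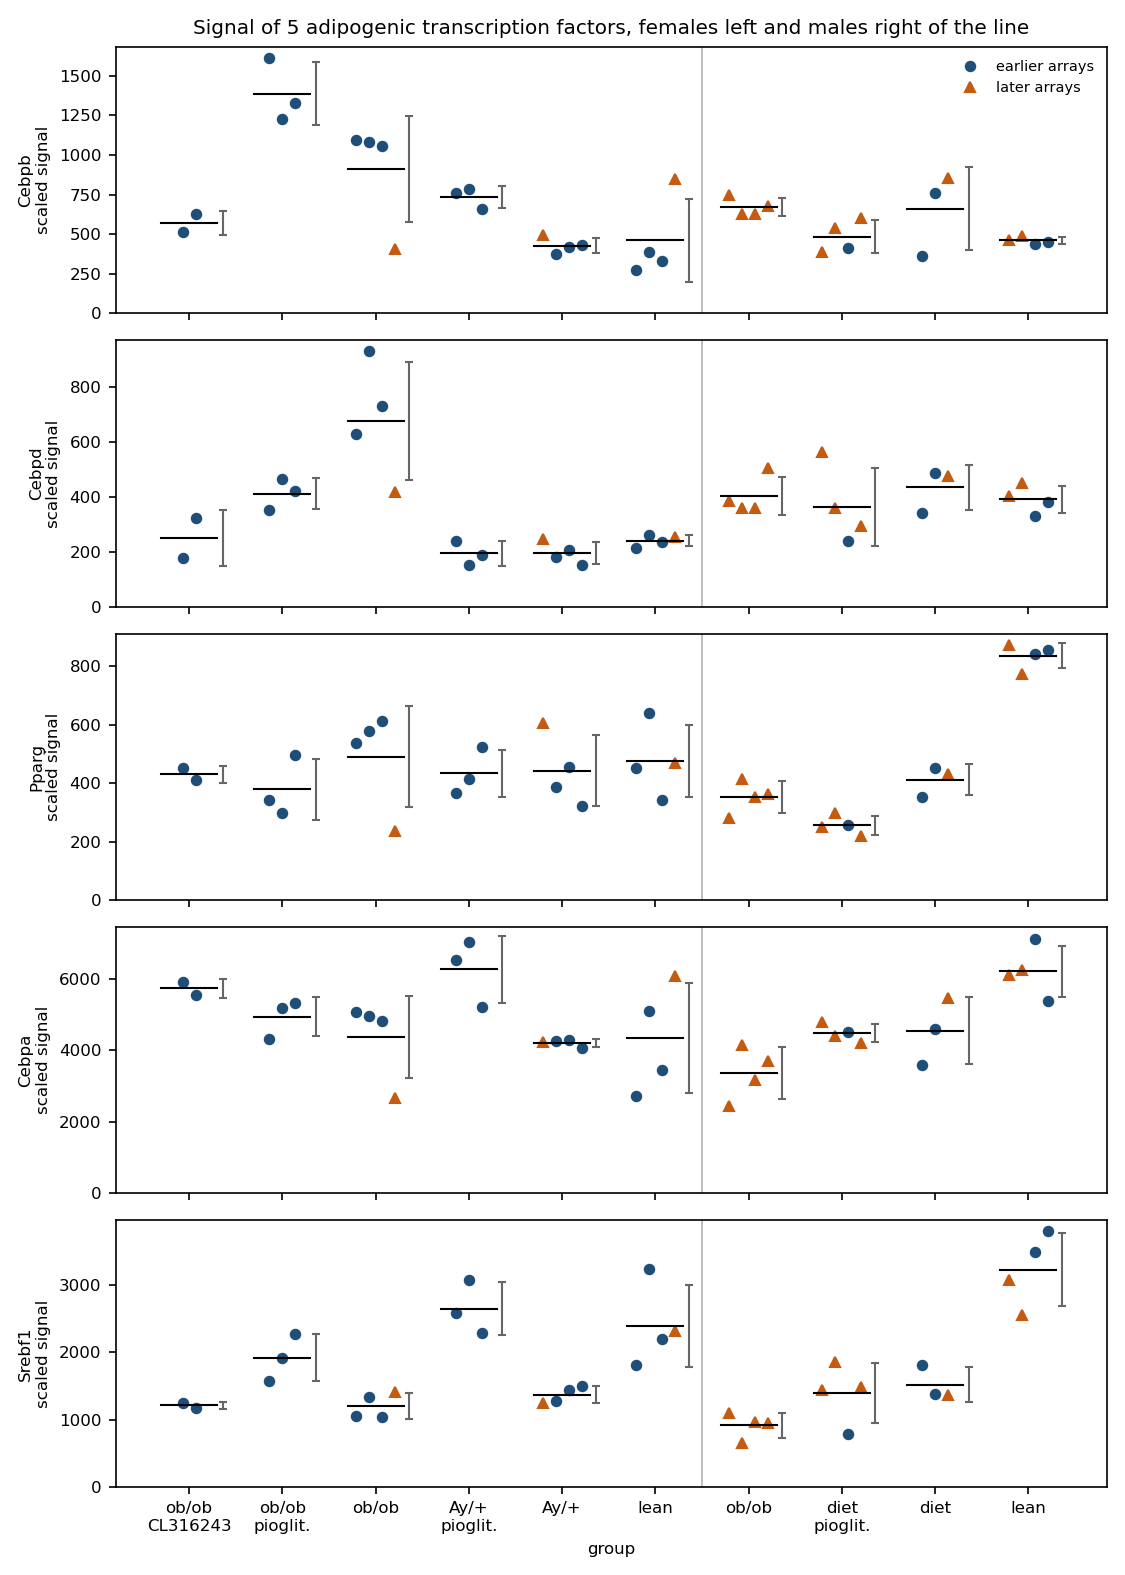
Scaled signal (linear axis from 0) of the 5 genes in every array, by group; circles are earlier and triangles later arrays, the black line is the group mean and the grey bar the SD. Lean males hold the highest Pparg and Srebf1 means (836 and 3233), untreated ob/ob females the highest Cebpd mean (678), and the later array of ob/ob females lies below the others of its group for Cebpb, Cebpa, Pparg and Cebpd.

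Genes known as targets of C/EBP beta and delta in the acute phase, of which 21 were measured, were called in each of the 4 obese groups. Of the 21, 7 rose and 2 fell in ob/ob females (median log2 fold change 0.19, -0.18 over all probe sets), and 4 rose and 1 fell in Ay/+ females (0.092, -0.063 over all). In males 6 rose and 2 fell in ob/ob males (0.19, 0.055 over all), and 4 rose and 1 fell in diet-induced obese males (0.16, 0.029 over all). Il1rn, the interleukin-1 receptor antagonist, had 618 ± 218 in ob/ob and 40.6 ± 16.5 in lean females (log2 fold change 3.31, adjusted p = 2.5e-08) and 716 ± 231 in ob/ob and 31.04 ± 13 in lean males (log2 fold change 3.75, adjusted p = 1.5e-09). Ccl2, a chemokine that draws monocytes, had 712 ± 315 in Ay/+ and 307 ± 198 in lean females (log2 fold change 1.25, adjusted p = 0.00337) and 3469.7 ± 913 in diet-induced obese and 455 ± 163 in lean males (log2 fold change 2.89, adjusted p = 5.5e-07). The share of the 21 called was 42.9% in ob/ob females, 23.8% in Ay/+ females, 38.1% in ob/ob males and 23.8% in diet-induced obese males, beside 24.3%, 17.8%, 10.6% and 1.85% over all probe sets. In Ay/+ females that share lay near the one over all probe sets. Leaving out ob/ob male replicate 1 gave 4 that rose and 2 that fell in ob/ob males. Macrophage markers moved beside these genes, with 19, 12, 22 and 15 of 24 higher in the same 4 comparisons and none lower.

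Pioglitazone lowered members of that list in each model: 4 of 21 fell in Ay/+ females, 3 in ob/ob females and 5 in diet-induced obese males, and none rose. The list medians were -0.05, -0.54 and -0.70, beside 0.05, -0.052 and -0.083 over all probe sets. The share called was 19% in Ay/+ females, 14.3% in ob/ob females and 23.8% in diet-induced obese males, beside 3.03%, 1.06% and 1.42% over all probe sets. Serpina3n, a protease inhibitor of the acute phase, fell in all 3, with 382 ± 17.2 in treated and 3135 ± 487 in untreated diet-induced obese males (log2 fold change -2.95, adjusted p = 4.2e-11). Saa3, a serum amyloid A protein, fell in all 3 as well, with 281 ± 177 in treated and 2167 ± 720.0 in untreated Ay/+ females (log2 fold change -2.94, adjusted p = 1.8e-05) and 206 ± 117 in treated and 1138 ± 346 in untreated ob/ob females (log2 fold change -2.43, adjusted p = 0.000699). Of the 24 macrophage markers, 2, none and none were lower in the same comparisons, and none was higher. Their summed signals were 12954 to 16827 in treated and 19940.3 to 27451 in untreated Ay/+ females, without overlap. In ob/ob females they were 31636 to 43811 in treated and 36472 to 51556 in untreated arrays. Diet-induced obese males had 33340 to 46264.5 with the drug and 44993 to 53529 without. The part of macrophages in these falls was not tested.

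Of 14 other genes of the C/EBP family and its binding partners, 3 rose and 2 fell in ob/ob females, and none rose and 1 fell in Ay/+ females. In males 3 rose and 1 fell in ob/ob males, and 2 rose and none fell in diet-induced obese males. As a share of the 14, those called were 35.7% in ob/ob females, 7.14% in Ay/+ females, 28.6% in ob/ob males and 14.3% in diet-induced obese males, beside 24.3%, 17.8%, 10.6% and 1.85% over all probe sets, so in Ay/+ females it lay below the share over all probe sets. Atf3, a stress-induced factor that pairs with C/EBP proteins, had 1071 ± 219.8 in ob/ob and 189 ± 66.7 in lean females (log2 fold change 2.39, adjusted p = 8.3e-07) and 1833 ± 242 in ob/ob and 174 ± 11.1 in lean males (log2 fold change 3.23, adjusted p = 1.9e-09). Fos, an immediate early factor, had 751 ± 105 in ob/ob and 165 ± 82.9 in lean females (log2 fold change 2.12, adjusted p = 1.4e-06) and 827 ± 84.4 in diet-induced obese and 89.7 ± 29.5 in lean males (log2 fold change 2.95, adjusted p = 1.3e-07). Pioglitazone changed none of the 14 in any model, beside 3.03% of all probe sets in Ay/+ females, 1.06% in ob/ob females and 1.42% in diet-induced obese males. CL316243 lowered Fos in ob/ob females (-1.20, adjusted p = 0.0445), where 3.74% of all probe sets changed.

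Pparg, the gene of the receptor that pioglitazone binds, stood highest in lean males and fell in both obese male groups, while neither obese female group passed the threshold against lean. Its promoter most used in fat cells is known to be bound by C/EBP proteins. 1 of 3 Pparg promoters in the RefSeq table, the one furthest downstream, is shown for the C/EBP core TTGCNNAA and the CCAAT box CCAAT, both searched on either strand and given in capitals (250 bases before the start site, chr6:115421816-115422065, plus strand, build GRCm38.p6).
Pparg: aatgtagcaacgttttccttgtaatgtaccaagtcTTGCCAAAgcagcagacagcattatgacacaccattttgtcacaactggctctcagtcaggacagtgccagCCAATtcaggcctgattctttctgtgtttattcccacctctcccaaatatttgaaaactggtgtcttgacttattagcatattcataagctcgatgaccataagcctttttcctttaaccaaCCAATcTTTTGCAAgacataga
The C/EBP core matches at -215 to -208 and -16 to -9, and CCAAT at -144 to -140 and -22 to -18, with no overlap between them. 1 match of CANNTG, at -173 to -168, is left in lower case. TTGCNNAA is held by 9.56% and CCAAT by 33.8% of all 32851 promoters. Neither of the other 2 Pparg promoters held TTGCNNAA.

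Pparg signals were 280.5, 413, 353 and 362 in ob/ob males, 248, 297, 258 and 219.7 in diet-induced obese males with pioglitazone, 351, 452 and 432 in those without, and 873, 775, 841 and 856 in lean males. Every lean male array lay above every other array of the 35. The lean male group also varied least, with a coefficient of variation of 5.13%. Among females Pparg had 452 and 409 with CL316243, 342, 299 and 495 with pioglitazone and 537, 579, 612 and 238 without in ob/ob. It had 368, 413 and 524 with pioglitazone and 606, 387, 455 and 323 without in Ay/+, and 451, 641, 342 and 469 in lean females. The 6 female groups overlapped throughout. Of the 9 steps between neighbouring group means, 7 were within the larger SD. The 2 that exceeded it were lean males over untreated ob/ob females and ob/ob males over pioglitazone-treated diet-induced obese males.

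Pparg fell in ob/ob males to 352 ± 54.6, against 836 ± 42.9 in lean males (SD, n = 4 each; log2 fold change -1.21, SE 0.226, adjusted p = 0.000234), and over later arrays alone the value was -1.18 (adjusted p = 0.00207; no earlier ob/ob male array exists here). Replicate 1, the array with male tract transcripts, had the lowest Pparg of the ob/ob males, and without it the log2 fold change was -1.11, adjusted p = 0.00188. In diet-induced obese males it fell to 412 ± 53.6 (SD, n = 3; log2 fold change -0.99, SE 0.245, adjusted p = 0.0232), with -1.05 over earlier and -0.89 over later arrays (adjusted p = 0.0407 and 0.201). The second call was lost on leaving out any 1 of the 7 arrays except lean male replicate 2, with adjusted p of 0.0521 to 0.15, while the groups did not overlap. In females the log2 fold changes were -0.0045 in ob/ob (95% interval -0.46 to 0.46, adjusted p = 0.993) and -0.10 in Ay/+ (-0.56 to 0.36, adjusted p = 0.81). Between the 1 later ob/ob and the 1 later lean female array the log2 fold change was -0.92.

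The ob/ob effect on Pparg in males minus that in females was -1.20 (adjusted p = 0.0215), and in lean mice Pparg was higher in males (log2 fold change 0.82, SE 0.226, adjusted p = 0.015). The first call was lost without lean female replicate 3 or without ob/ob female replicate 1, 2 or 3 (adjusted p 0.0533 to 0.06) and with scan day as a random block (-1.07, adjusted p = 0.115). Without ob/ob male replicate 1 the first was -1.10, adjusted p = 0.0487. Over later arrays, the only batch with ob/ob arrays of both sexes, the first was -0.27, with 1 array in each female group. The second was lost without lean female replicate 3 (adjusted p = 0.0734), and the arrays of lean males and lean females did not overlap. Between ob/ob males and females the value was -0.39 (adjusted p = 0.542), and it passed without ob/ob female replicate 4 (-0.69, adjusted p = 0.0414) and without all 4 doubted arrays (-0.69, adjusted p = 0.0151). Replicate 4 is the only later ob/ob female array, so without it sex and batch cannot be told apart. Over later arrays, with replicate 4 alone for females, the value was 0.51. Markers of fat cells were lower beside Pparg in ob/ob males: 8 of 16 fell and none rose, with summed signals of 25966 to 39205 in ob/ob males, against 50703 to 63126 in lean males. In diet-induced obese males 1 of 16 fell, with sums of 52155 to 71469. Endothelial markers were lower in ob/ob males too: 7 of 12 fell and none rose, with sums of 4284 to 5985 in ob/ob males, against 8906 to 10917 in lean males. Without ob/ob male replicate 1, 7 of 16 fat cell markers and 4 of 12 endothelial markers fell. In diet-induced obese males none of the 12 changed, with sums of 6935 to 8521. Over all probe sets 10.6% changed in ob/ob males and 1.85% in diet-induced obese males. The part of either cell type in the falls of Pparg, Cebpa and Srebf1 was not tested.

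Pioglitazone did not move Pparg past the threshold, while genes known as PPAR gamma targets rose. The log2 fold changes of Pparg were -0.0043 in Ay/+ females (95% interval -0.50 to 0.49, adjusted p = 0.998), -0.31 in ob/ob females (-0.80 to 0.19, adjusted p = 0.991) and -0.64 in diet-induced obese males (-1.14 to -0.14, adjusted p = 0.265). All 4 treated diet-induced obese arrays lay below all 3 untreated ones. Of 29 measured targets, 10 rose in Ay/+ females, 8 in ob/ob females and 7 in diet-induced obese males, and none fell. The list medians were 0.56, 0.47 and 0.57, beside 0.05, -0.052 and -0.083 over all probe sets. The share called was 34.5% in Ay/+ females, 27.6% in ob/ob females and 24.1% in diet-induced obese males, beside 3.03%, 1.06% and 1.42% over all probe sets. Without the 4 doubted arrays, 14, 9 and 10 rose and none fell.

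Cidea, known in brown fat as a protein of lipid droplets, rose in all 3, with 2031 ± 1427 in treated and 170.1 ± 78.7 in untreated Ay/+ females (log2 fold change 3.17, adjusted p = 2.2e-06), 869.9 ± 289 in treated and 39.2 ± 14.8 in untreated ob/ob females (log2 fold change 3.82, adjusted p = 2.2e-07) and 820.4 ± 207 in treated and 138 ± 6.56 in untreated diet-induced obese males (log2 fold change 2.36, adjusted p = 0.000332). Aqp7, the glycerol channel of fat cells, had 1339 ± 234 in treated and 358 ± 97.8 in untreated Ay/+ females (log2 fold change 1.86, adjusted p = 4.1e-05). Pdk4, a kinase that turns down pyruvate oxidation, had 3273 ± 994 in treated and 264 ± 149 in untreated diet-induced obese males (log2 fold change 3.60, adjusted p = 2.7e-07). Brown fat markers, a list that also holds Cidea, moved beside them, with 4 of 8 higher in each model. Their summed signals were 3506 to 10708 in treated and 705 to 1788 in untreated Ay/+ females, 2486 to 4209 in treated and 379.9 to 442 in untreated ob/ob females, and 2294 to 4668 in treated and 702 to 891 in untreated diet-induced obese males.

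With obesity the same 29 targets went in mixed directions in females and mostly down in ob/ob males. In ob/ob females 5 rose and 6 fell, and in Ay/+ females 4 rose and 5 fell. In ob/ob males 1 rose and 12 fell, and in diet-induced obese males 1 rose and none fell. As a share of the 29, those called were 37.9% in ob/ob females, 31% in Ay/+ females, 44.8% in ob/ob males and 3.45% in diet-induced obese males, beside 24.3%, 17.8%, 10.6% and 1.85% over all probe sets. Without ob/ob male replicate 1, 1 rose and 11 fell in ob/ob males. Lipe, the hormone-sensitive lipase, had 1319 ± 274 in ob/ob and 3851 ± 446 in lean males (log2 fold change -1.55, adjusted p = 2.8e-06). Pck1, an enzyme of a pathway that leads to glycerol phosphate, had 168 ± 16.95 in ob/ob and 567 ± 125 in lean males (log2 fold change -1.61, adjusted p = 1.8e-05). In females the falls included Cidea (-4.99 in ob/ob and -3.42 in Ay/+), while Angptl4, an inhibitor of lipoprotein lipase, rose in both (1.41 and 1.82). CL316243 raised 2 and lowered 1 of the 29 against untreated ob/ob, where 3.74% of all probe sets changed. Against pioglitazone 1 was higher and 10 were lower, where 7.59% of all probe sets differed and 4.69% were lower. Of 22 PPAR gamma partners and co-regulators, 1 rose and 2 fell in ob/ob females, and 1 rose and 5 fell in Ay/+ females. None rose and 1 fell in ob/ob males. The share of the 22 called was 13.6% in ob/ob females, 27.3% in Ay/+ females, 4.55% in ob/ob males and 0% in diet-induced obese males, beside 24.3%, 17.8%, 10.6% and 1.85% over all probe sets, so it lay below the share over all probe sets in both ob/ob groups and in diet-induced obese males. The gene that fell in ob/ob males was Nrip1, a co-repressor (-1.22), which fell in ob/ob and Ay/+ females too (-1.13 and -1.13).

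Cebpa, the gene of C/EBP alpha, which works with PPAR gamma in the mature fat cell, had the smallest range of group means of the 5, with a ratio of 1.86 between highest and lowest, against 3.24 or more for the others. Of the 4 obese groups ob/ob males alone passed the threshold against lean. Its signals were 2432, 4144, 3167 and 3711 in ob/ob males, 4805, 4399, 4506 and 4217 in diet-induced obese males with pioglitazone, 3592, 4589 and 5467 in those without, and 6096, 6243, 7101 and 5379 in lean males. All 4 ob/ob male arrays lay below all 4 lean male arrays, and the diet-induced obese arrays overlapped the lean ones. The ob/ob females had 5921 and 5545 with CL316243, 4323, 5171 and 5335 with pioglitazone and 5067, 4953, 4813 and 2666 without. The Ay/+ females had 6538, 7041 and 5208 with pioglitazone and 4244, 4253, 4292 and 4053 without, and lean females 2717, 5092, 3445 and 6089. The 4 untreated Ay/+ arrays were the closest together, with a coefficient of variation of 2.54%, and the lean females the furthest apart, with 35.4%.

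Cebpa fell in ob/ob males to 3363 ± 738, against 6205 ± 707 in lean males (SD, n = 4 each; log2 fold change -0.90, SE 0.224, adjusted p = 0.00547; -0.90 over later arrays, adjusted p = 0.0271). Replicate 1, with male tract transcripts, was again the lowest ob/ob male array, and without it the log2 fold change was -0.75, adjusted p = 0.0368. In diet-induced obese males the log2 fold change was -0.46 (adjusted p = 0.532), in ob/ob females 0.037 (0.926) and in Ay/+ females 0.028 (0.949). Under pioglitazone it was 0.56 in Ay/+ females (95% interval 0.067 to 1.05, adjusted p = 0.249), where all 3 treated arrays lay above all 4 untreated. It was 0.22 in ob/ob females (adjusted p = 0.999) and -0.0023 in diet-induced obese males (adjusted p = 0.999). Under CL316243 the value of 0.43 against untreated ob/ob became -0.33 after quantile normalization, so its direction depended on the scaling. Between lean males and lean females the log2 fold change was 0.58 (adjusted p = 0.0723), and it passed without lean female replicate 2 (adjusted p = 0.0473) or replicate 4 (adjusted p = 0.018). The ob/ob effect in males minus that in females was -0.94 (adjusted p = 0.072). It passed without either of those lean arrays (adjusted p = 0.0477 and 0.0208) or without ob/ob female replicate 4 (-1.16, adjusted p = 0.00834). Replicate 4 is the only later array of lean females and of ob/ob females. Over later arrays the difference between the sexes had the opposite sign, at 0.29, and ob/ob against lean females had -1.18.

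Of 11 genes known as C/EBP alpha targets in fat cells, 4 fell and none rose in ob/ob males (median -0.50, 0.055 over all probe sets), and 2 fell and none rose in diet-induced obese males (median 0.19, 0.029 over all). Of the 11, the share called was 36.4% in ob/ob females, 9.09% in Ay/+ females, 36.4% in ob/ob males and 18.2% in diet-induced obese males, beside 24.3%, 17.8%, 10.6% and 1.85% over all probe sets. Slc2a4, the insulin-responsive glucose transporter GLUT4, fell in both, with 128 ± 8.91 in ob/ob and 860.4 ± 148 in lean males (log2 fold change -2.54, adjusted p = 1.1e-08) and 232 ± 23.4 in diet-induced obese males (-1.78, adjusted p = 0.000148). Agt, angiotensinogen, also fell in both (-2.68 and -1.86). In ob/ob females 1 rose, Lep, which encodes leptin (1.46), and 3 fell, among them Lpl, lipoprotein lipase (-0.90), and Retn, resistin (-0.95). In Ay/+ females Lep alone changed and rose (1.98). Pioglitazone lowered Agt in Ay/+ females (-2.07) and changed none of the 11 in ob/ob females or diet-induced obese males. Over all probe sets it changed 3.03%, 1.06% and 1.42% in these models. CL316243 raised Lep and Retn in ob/ob females (1.35 and 1.21), where 3.74% of all probe sets changed. That comparison had 2 treated arrays and no shared scan day. With scan day as a random block, 32 of all probe sets passed there, against 464 without it.

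Srebf1, the gene of SREBP-1, fell in all 4 obese against lean comparisons and was the only gene of the 5 to rise under pioglitazone, in Ay/+ females. Of 3 Srebf1 promoters in the RefSeq table, the one furthest downstream is shown, because the first exon of SREBP-1c, the form most used in fat and liver, is known to lie downstream of that of SREBP-1a. Capitals mark the CCAAT box CCAAT, which the factor NF-Y is known to bind, and the E-box CANNTG, which SREBP-1 itself can bind, searched on both strands (250 bases before the start site, chr11:60210472-60210721, minus strand, build GRCm38.p6).
Srebf1: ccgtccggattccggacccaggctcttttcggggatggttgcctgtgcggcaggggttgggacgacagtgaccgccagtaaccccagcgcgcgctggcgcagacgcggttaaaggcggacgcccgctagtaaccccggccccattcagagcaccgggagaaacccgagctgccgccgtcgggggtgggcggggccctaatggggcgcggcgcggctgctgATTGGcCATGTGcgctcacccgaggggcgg
CCAAT matches at -30 to -26 on the opposite strand, and CANNTG at -24 to -19, with no overlap. Of all 32851 promoters, 33.8% held CCAAT and 66.2% CANNTG.

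Srebf1 signals were 1094, 653, 961 and 949.5 in ob/ob males, 1441, 1863, 787 and 1485 in diet-induced obese males with pioglitazone, 1815, 1373 and 1369 in those without and 3082, 2552, 3489.6 and 3807 in lean males. All lean male arrays lay above all 11 arrays of obese males. Among females they were 1245 and 1174 with CL316243, 1576, 1908 and 2276 with pioglitazone and 1052, 1333, 1033 and 1414 without in ob/ob. They were 2579, 3079.9 and 2294 with and 1249.6, 1276, 1439.6 and 1504 without pioglitazone in Ay/+, and 1812, 3246, 2196 and 2317 in lean females. Every untreated ob/ob and Ay/+ array lay below every lean female array, and every pioglitazone-treated array of both genotypes lay above every untreated one. The order of group means ran from lean males (3233) down to ob/ob males (914), a ratio of 3.54, and 5 of the 9 steps between neighbours were within the larger SD.

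In ob/ob males Srebf1 fell to 914 ± 186, against 3233 ± 542 in lean males (SD, n = 4 each; log2 fold change -1.80, SE 0.214, adjusted p = 1.4e-07; -1.62 over later arrays, adjusted p = 0.000786). Without replicate 1 of the ob/ob males it was -1.90, adjusted p = 3.4e-07. In diet-induced obese males it fell to 1519 ± 256 (SD, n = 3; log2 fold change -1.08, SE 0.231, adjusted p = 0.00618), with -1.20 over earlier and -1.02 over later arrays, and the call was lost without diet-induced obese replicate 2 (adjusted p = 0.0591). In ob/ob females it fell to 1208 ± 194, against 2393 ± 608 in lean females (log2 fold change -0.95, SE 0.214, adjusted p = 0.00152), with -1.04 over earlier and -0.70 over later arrays. In Ay/+ females it fell to 1368 ± 124 (log2 fold change -0.77, SE 0.214, adjusted p = 0.0113), with -0.73 and -0.88 in the batches, and the call was lost without lean female replicate 2 (adjusted p = 0.0551). The ob/ob effect in males minus that in females was -0.85 (adjusted p = 0.0873), so a difference between the sexes was not shown. Without lean female replicate 2 it passed, at -1.01 (adjusted p = 0.0382).

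Pioglitazone raised Srebf1 in Ay/+ females to 2651 ± 398, against 1368 ± 124 untreated (SD, n = 3 and 4; log2 fold change 0.94, SE 0.231, adjusted p = 0.0163). The call was lost without treated replicate 2 (adjusted p = 0.096), and over earlier arrays the value was 0.90 (adjusted p = 0.00479). In ob/ob females it was 0.66 (95% interval 0.19 to 1.13, adjusted p = 0.282), with treated arrays above all untreated ones, and in diet-induced obese males -0.17 (-0.64 to 0.30, adjusted p = 0.892). The effect in Ay/+ minus that in ob/ob females was 0.28 (adjusted p = 0.987) and the effect in diet-induced obese males minus that in ob/ob females was -0.83 (adjusted p = 0.95). The effect in diet-induced obese males minus that in Ay/+ females was -1.11 (adjusted p = 0.321). Of the 5 genes none passed in these differences of effect, where 0.0242%, 0.00805% and 0% of all probe sets did. CL316243 gave 0.014 against untreated ob/ob (95% interval -0.52 to 0.55).

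**Figure D3:**
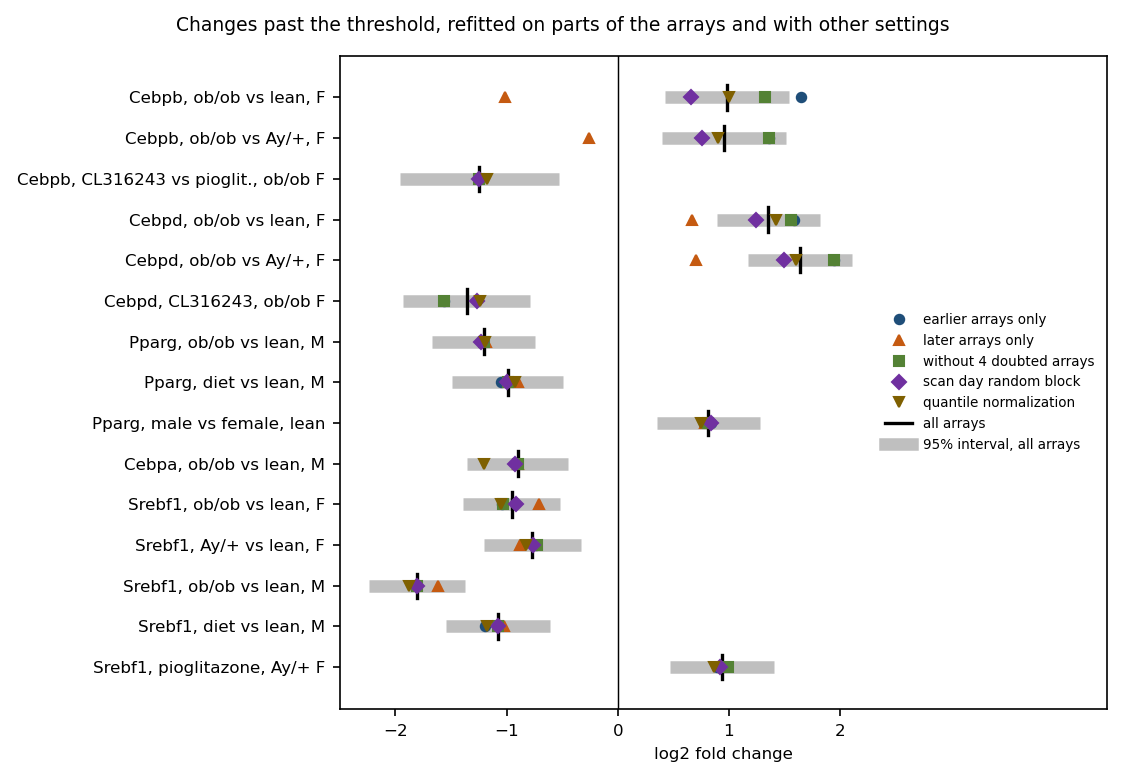
The 15 changes past the threshold in 13 comparisons (rows), as log2 fold changes from limma over all arrays (black bars, with the 95% interval in grey) and refitted over earlier or later arrays only, without the 4 doubted arrays, with scan day as a random block and after quantile normalization (coloured symbols). The 2 Cebpb rows of ob/ob females cross 0 over later arrays (-1.02 and -0.26), and the symbols of all other rows stay on the side of the black bar.

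Genes of fatty acid synthesis known as SREBP-1 targets fell where Srebf1 fell, in each of the 4 obese groups. Of 16 measured, 10 fell in ob/ob females (median log2 fold change -1.0, -0.18 over all probe sets) and 6 in Ay/+ females (-0.54, -0.063 over all). In males 8 fell in ob/ob males (-0.85, 0.055 over all) and 3 in diet-induced obese males (-0.50, 0.029 over all), and none rose in any of the 4. The share called was 62.5% in ob/ob females, 37.5% in Ay/+ females, 50% in ob/ob males and 18.8% in diet-induced obese males, beside 24.3%, 17.8%, 10.6% and 1.85% over all probe sets. Without ob/ob male replicate 1, 8 fell in ob/ob males. Without the 4 doubted arrays 10, 6, 9 and 4 fell, and 1, 2, 0 and 0 rose. Elovl6, which lengthens palmitate, fell in all 4, with 97.7 ± 20.3 in ob/ob and 2698 ± 433 in lean females (log2 fold change -4.50, adjusted p = 5.1e-10) and 125 ± 122 in ob/ob and 633 ± 437 in lean males (log2 fold change -2.20, adjusted p = 0.000171). Fasn, fatty acid synthase, fell in ob/ob females (-1.39) and had 1385 ± 297 in ob/ob and 5062 ± 1018 in lean males (log2 fold change -1.86, adjusted p = 1.0e-07). Me1, malic enzyme, which supplies NADPH for the synthesis, fell in all 4, by 1.68, 2.25, 1.33 and 0.94 on the log2 scale in the order above.

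Under pioglitazone 3 of the 16 rose in Ay/+ females, 1 in ob/ob females and 1 in diet-induced obese males, and none fell. Over all probe sets 3.03%, 1.06% and 1.42% changed in these models. Me1 was the gene that rose in all 3 (1.64, 0.96 and 1.40, adjusted p = 5.2e-05, 0.0439 and 0.000867). In Ay/+ females it was joined by Slc25a1, the citrate carrier that brings carbon out of mitochondria (1.39), and Elovl5 (0.84). The list medians were 0.41, 0.024 and -0.27, beside 0.05, -0.052 and -0.083 over all probe sets. With CL316243, Thrsp, a nuclear protein of lipid synthesis, rose in ob/ob females (1.51). It was the only 1 of the 16 to change, where 3.74% of all probe sets did. None of the 16 passed after quantile normalization, and 4 rose without the 4 doubted arrays.

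Among 13 genes of SREBP processing and of cholesterol synthesis, a pathway mainly driven by the related SREBP-2, 2 fell in ob/ob females, 3 in ob/ob males and 1 in diet-induced obese males, with none higher, and 4 fell and 2 rose in Ay/+ females. The share called was 15.4% in ob/ob females, 46.2% in Ay/+ females, 23.1% in ob/ob males and 7.69% in diet-induced obese males, beside 24.3%, 17.8%, 10.6% and 1.85% over all probe sets, so in ob/ob females it lay below the share over all probe sets. Fdft1, squalene synthase, fell with 277 ± 144 in ob/ob and 801 ± 163 in lean males (log2 fold change -1.55, adjusted p = 1.4e-05). In pioglitazone-treated Ay/+ females 3 rose, Lss (1.72), Hmgcs1 (1.23) and Fdft1 (0.99), all enzymes of sterol synthesis. Of the 13 none changed under the drug in ob/ob females or diet-induced obese males. Over all probe sets 3.03%, 1.06% and 1.42% changed in these models. Brown fat markers moved beside these genes in females, with 5 of 8 lower in ob/ob and 4 of 8 lower in Ay/+ than in lean females, and summed signals of 379.9 to 442, 705 to 1788 and 3307 to 7402.

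**Figure D4:**
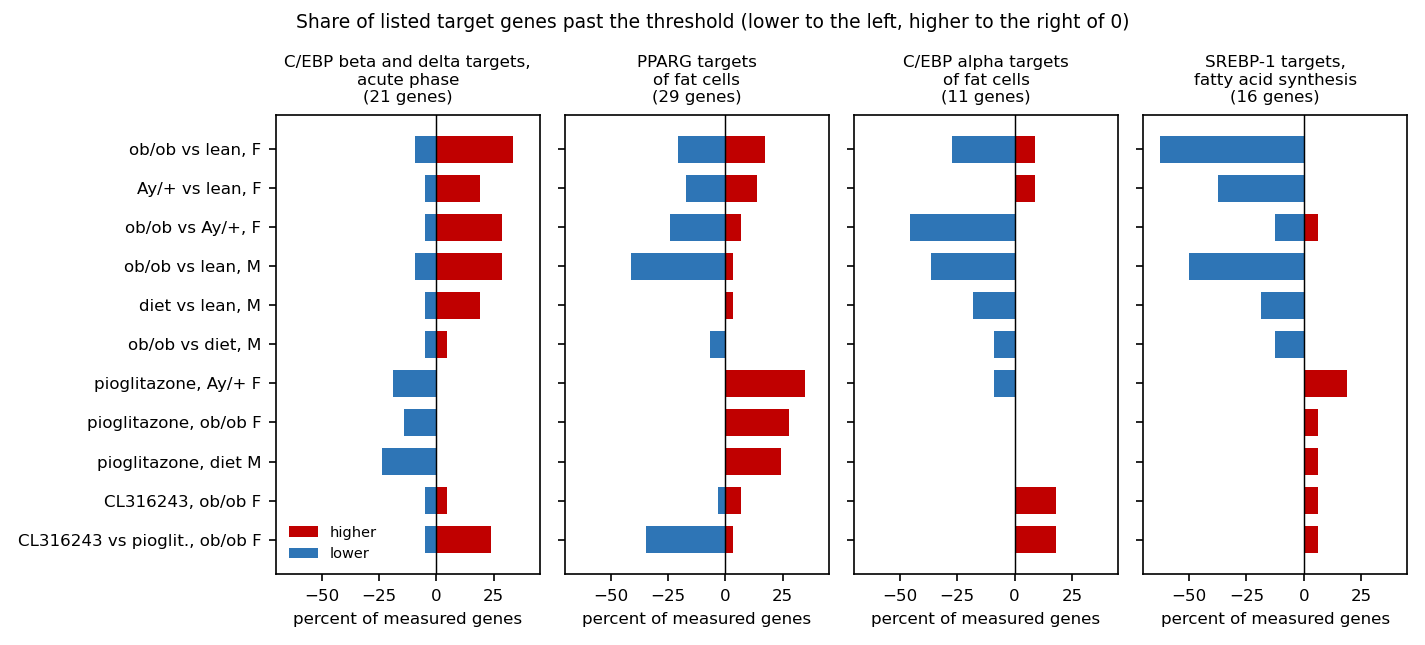
Share of the measured genes of 4 target lists that fell (blue, drawn to the left of 0) or rose (red, to the right) past an adjusted p of 0.05, in percent of the list, for 11 comparisons (the group named first over the second, or drug-treated over untreated). SREBP-1 targets fell in the 4 obese against lean comparisons, PPARG targets rose under pioglitazone in 3 models, and acute phase targets fell there.

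Other factors that act on fat cell formation were counted in the same comparisons. Of 23 genes that promote it, 5 rose and 4 fell in ob/ob females, and 1 rose and 5 fell in Ay/+ females. In males 1 rose and 8 fell in ob/ob males, and 1 rose and none fell in diet-induced obese males. The share of the 23 called was 39.1% in ob/ob females, 26.1% in Ay/+ females, 39.1% in ob/ob males and 4.35% in diet-induced obese males, beside 24.3%, 17.8%, 10.6% and 1.85% over all probe sets. Egr2, also called Krox20, which switches on Cebpb, rose in ob/ob females (1.09), ob/ob males (2.77) and diet-induced obese males (1.52). Klf4, another activator of Cebpb, fell in Ay/+ females (-0.79) and ob/ob males (-1.11). Of 27 genes that restrain it, 2 rose and 4 fell in ob/ob females, none rose and 3 fell in Ay/+ females, 1 rose and 1 fell in ob/ob males, and none changed in diet-induced obese males. The share of the 27 called was 22.2% in ob/ob females, 11.1% in Ay/+ females, 7.41% in ob/ob males and 0% in diet-induced obese males, below the share over all probe sets in each of the 4. Tgfb1, a growth factor that holds precursor cells back, rose in ob/ob females (2.25) and ob/ob males (2.51), beside the macrophage markers. Under pioglitazone none of the 23 changed in any model, and of the 27 only Notch1 did, which fell in Ay/+ females (-1.49). Over all probe sets 3.03% changed in Ay/+ females, 1.06% in ob/ob females and 1.42% in diet-induced obese males.

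The 5 genes fell into loose groups by their means over the 10 groups. Cebpa and Srebf1 had a Pearson r of 0.68, Pparg and Srebf1 0.62, Pparg and Cebpa 0.48 and Cebpb and Cebpd 0.45. The other 6 pairs lay between -0.30 and 0.047. These are descriptions over 10 group means that share arrays, scaling and batches. Of 7094 other genes searched, the most like Srebf1 was Fdft1 (r 0.988), whose mean signal was 277 in ob/ob males and 801 in lean males, followed by Gys1, muscle-type glycogen synthase (0.918), and Sema4a (0.882). The most like Cebpd was Icam1, a cell adhesion molecule (0.960), with means of 115 in ob/ob females and 37.4 in lean females, followed by Gnl2 (0.936) and Cyth3 (0.928). For Cebpb they were Farsa, a subunit of phenylalanyl-tRNA synthetase (0.961), Srp9 (0.952) and Rhoa (0.947). For Cebpa they were Akt2, a kinase of insulin signalling (0.903), Lipe (0.878) and Mfng (0.878), and for Pparg Galnt2 (0.949), Gtf2i (0.927) and Gsta3 (0.920).

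**Figure D5:**
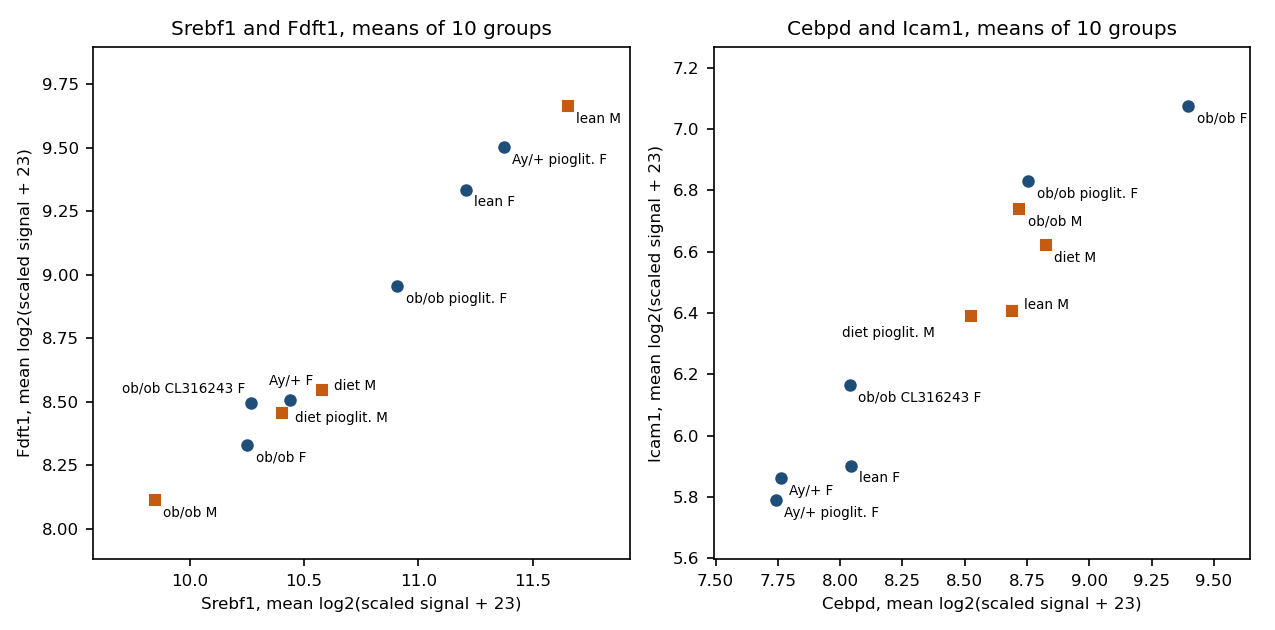
Mean log2 of scaled signal plus 23 in the 10 groups for Srebf1 against Fdft1 (left) and Cebpd against Icam1 (right), the gene most like each; circles are female and squares male groups. Both pairs order the groups nearly alike (r 0.988 and 0.960), from ob/ob males up to lean males for Srebf1 and from pioglitazone-treated Ay/+ females up to untreated ob/ob females for Cebpd.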

How the data were processed

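Total RNA of perigonadal adipose tissue was labelled with biotin and hybridised to Affymetrix MG-U74Av2 arrays, per the labels' protocols. The deposited values are MAS5 signal intensities per probe set made by the authors, per the submitters' processing notes; the MAS5 version, scaling target and detection calls are not given in the sources used here. In the deposited intensities 13 arrays shared a trimmed mean near 250 and 22 had others, up to 1680.3. The deposited experiment files hold scan settings with no expression values and served only for batches: the 13 later arrays name a scanner type and the 22 earlier ones do not.

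Arrays were brought to one 2% trimmed mean, 250, and of 12488 probe sets 66 controls were left out. Log2 was taken after adding 23, the 25th percentile of signals, which compresses changes of dim genes. A limma model (version 3.58.1, R 4.3.3) with a mean for each of 10 groups used all 35 arrays, eBayes and a trend. Benjamini-Hochberg adjustment ran over 12422 probe sets in each comparison. The array annotation gave 1 symbol to 10833 probe sets, several to 396 and none to 1193. A list gene was read from its probe set with the highest mean log2. Some genes stand in more than 1 list, so the lists are not separate evidence. Cidea is a PPAR gamma target and a brown fat marker, and Lipe, Aqp7, Slc2a4, Lep, Retn and Lpl are targets and fat cell markers. The 5 genes and 21 lists (371 listed genes, 288 measured), written from general knowledge, were chosen with earlier results of these data known, as were the comparisons and alternatives. From each list reported, up to 4 genes of smallest adjusted p were named per comparison, and for each of the 5 genes the 3 others with the highest Pearson r over group means (1 probe set, 1 symbol, highest group mean at least 2 times the pseudocount). In data simulated at these group sizes on 12422 probe sets, the fit called 16 to 54% of genes changed by log2 1 and 85 to 96% of those changed by log2 2, lowest with 2 CL316243 arrays and in CL316243 against pioglitazone; false calls were 2.84 to 8.77% of calls. The simulated noise was independent between arrays, without batches, scan days or doubted arrays, and only a small part of the probe sets was changed. These rates may therefore not carry over to the real arrays. The number of arrays limits the precision. Promoters are RefSeq's, 1 or more per gene, build GRCm38.p6. Other settings tried were a pseudocount of 1, quantile normalization, array weights, a median filter, a fit without trend or with only the groups compared, and a replicate-number block. Batch was handled as a block, by refits within the earlier or the later arrays, and by scan day as a random block. Single arrays were left out in turn, as were the 4 doubted arrays together. Figures came from matplotlib 3.10.9, and python 3.11.15 with pandas 2.3.3 and numpy 2.4.6 made the summaries.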

Additional observations from a re-analysis of the deposited data

Results flagged for a closer look

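In untreated ob/ob females, replicate 4 lay far below the other 3 arrays for Cebpa, with a scaled signal of 2666, and for Cebpb, with 407. Of 30 sets of 4 arrays looked at, 5 genes in each of 6 groups, 2 held such an array, and chance gives about 1 in 20. The array is 1 of the 4 doubted, and the plot of refits shows each change without those 4 arrays.

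The effect of the ob/ob genotype differed between the sexes by a test of the difference for Pparg, with the male effect minus the female effect at -1.20 (adjusted p = 0.0215), and for Cebpd, at -1.33 (adjusted p = 0.0129). All ob/ob male arrays were later ones and 3 of 4 ob/ob female arrays earlier ones, so batch and group cannot be fully told apart. Over later arrays, with 1 array in each female group, the differences were -0.27 for Pparg and -0.76 for Cebpd.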

How the results depend on the processing

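Over all alternatives, 285 of 345 recounts of how many of the 5 genes passed stayed within 1.5 times the count reported. That total includes 25 of 25 for each pioglitazone difference of effect, where none of the 5 passed. The recounts stayed in 8 of 16 for CL316243 against pioglitazone, 10 of 20 for lean males against females and 11 of 17 for CL316243. For ob/ob against lean males 19 of 19 stayed. Those gave 3, or 4 with the compared groups only and with array weights, where Cebpb passed too. Over later arrays only, 0 passed in ob/ob against lean females (3 over all arrays), Ay/+ against lean females (1), ob/ob against Ay/+ females (2), diet-induced obese against lean males (2), lean males against females (1) and the ob/ob effect between sexes (2); female groups have 1 such array, assumed to vary like the others. There the sign of Cebpb was opposite, to -1.02 in ob/ob against lean and -0.26 in ob/ob against Ay/+ females, and the cause was not tested. Over earlier arrays 2 passed under pioglitazone in Ay/+ females, CL316243 in ob/ob females and between lean males and females (1 each over all). With scan day as a random block 1 passed between ob/ob and Ay/+ females, and 0 under CL316243, between CL316243 and pioglitazone and in the ob/ob effect between sexes. With the compared groups only, 0 passed in Ay/+ against lean females, pioglitazone in Ay/+ and CL316243, 1 in ob/ob against Ay/+ females, and 2 in CL316243 against pioglitazone and lean males against females. With array weights 0 passed in Ay/+ against lean females, 1 in ob/ob against diet-induced obese males and pioglitazone in diet-induced obese males, 2 under pioglitazone in Ay/+ females and CL316243, 3 under pioglitazone in ob/ob females, CL316243 against pioglitazone and lean males against females, 4 in ob/ob males against females and 5 in the ob/ob effect between sexes. Without the 4 doubted arrays 1 passed under pioglitazone in ob/ob females, 2 under CL316243, CL316243 against pioglitazone and ob/ob males against females, and 3 in lean males against females, where quantile normalization also gave 3 and the median filter 2. Leaving out single arrays gave 0 to 1 in Ay/+ against lean females, pioglitazone in Ay/+, CL316243 and CL316243 against pioglitazone, 1 to 2 in ob/ob against Ay/+ females, 0 to 2 in diet-induced obese against lean males and both comparisons of the sexes, and 1 to 4 in the ob/ob effect between sexes. Replicate numbers did not pair the arrays (correlations of same-numbered deviations -0.298 to 0.19), and with a replicate block 3 of the 5 genes passed in ob/ob against lean females, as without it, and no count of the 5 changed. Over all probe sets the number passing ran from 517 to 5630 around 3024 in ob/ob against lean females, 162 to 4102 around 2207 in Ay/+ against lean females, 221 to 5357 around 2685 in ob/ob against Ay/+ females, 1076 to 2554 around 1314 in ob/ob against lean males, 69 to 632 around 230 in diet-induced obese against lean males, 17 to 600 around 109 in ob/ob against diet-induced obese males, 90 to 1221 around 377 in pioglitazone in Ay/+ females, 14 to 699 around 132 in pioglitazone in ob/ob females, 59 to 570 around 176 in pioglitazone in diet-induced obese males, 20 to 3186 around 464 in CL316243 in ob/ob females, 390 to 3087 around 943 in CL316243 against pioglitazone, 395 to 3593 around 1949 in lean males against females, 34 to 2379 around 148 in ob/ob males against females, 226 to 3988 around 706 in the ob/ob effect in males minus females. Quantile normalization moved the median of all log2 fold changes by 0.13 in ob/ob against lean females, 0.19 between lean males and females, -0.19 in the ob/ob effect between sexes and 0.12 in the pioglitazone effect between diet-induced obese and Ay/+ mice, and the share of changed probe sets that rose from 33.2% to 55.5%, 41.6% to 54.5%, 35.2% to 45.6% and 50% to 39.6% for lean males against females, CL316243, Ay/+ against lean females and the ob/ob effect between sexes. Earlier or later fits could not be run where a group has no such array.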
